A study of Brassica rapa subsp. chinensis with 24 samples.

Results

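The nitrogen uptake, assimilation and signaling genes of Choy-sum (Brassica rapa subsp. chinensis) were taken as the rows of the expression table whose identifier equals 1 of 37 Arabidopsis thaliana locus codes: transporters of nitrate and ammonium, enzymes that turn nitrate into amino acids, and regulators of nitrate responses. Of the 37 codes, 35 were found among the 20564 identifiers of the table, where they label 183 of 66566 rows, and the rows of an identifier were summed. The codes AT1G64780 (AMT1-2, an ammonium transporter) and AT1G37130 (NIA2, a nitrate reductase) matched no row and are not analysed here. The study dressed seeds of wild-type plants with SAB, a consortium of Streptomyces, Agromyces and Bacillus strains, and soaked the seeds of untreated plants in a magnesium sulfate solution without bacteria. Both kinds of plants grew in peat-moss soil. RNA of whole leaves and of whole roots was sequenced at day 8, the true leaf stage, and at day 18, when plants were mature and not yet flowering. The 8 groups are SAB-treated and untreated leaves of day 8, SAB-treated and untreated leaves of day 18, and the same 4 kinds of root, each with 3 independent biological replicates, which makes 24 libraries.

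Plants take nitrate up through transporters of the NRT1 and NRT2 families and ammonium through AMT transporters. Nitrate is stored in the vacuole or reduced, first to nitrite by nitrate reductase in the cytosol and then to ammonium by nitrite reductase in the plastid. Glutamine synthetase and glutamate synthase then build ammonium into glutamine and glutamate. In Arabidopsis many genes of this route are switched on by nitrate itself, through the transcription factor NLP7, and another set of nitrate-induced regulators, LBD37, LBD38 and LBD39, holds nitrogen-responsive genes down.

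Gene names below are those of the Arabidopsis locus with the same code, and the roles given are known from Arabidopsis. The sources used here do not say how the codes were assigned to Choy-sum sequences, nor whether several rows of a code are forms of 1 gene or different genes. Levels are given as CPM, the usual depth-normalized unit, of the summed estimated counts, scaled over all 24 libraries, in the order of replicates 1, 2 and 3. A value after ± is the SD over the 3 replicates of a group. Tests are those of edgeR, and a gene passed or was called at an adjusted p below 0.05, unless another tool is named. They are not divided by transcript length, so they compare samples within a gene and not genes with each other. Library totals ran between 28068145 and 37999411. The tissue labels held: all 6 leaf markers (RBCS1A, RCA, PSBO1, CAB1, CAB2 and LHCA1) were higher in leaf and the 5 root markers reported here (EXPA7, CASP1, CASP2, PER27 and RCI3) higher in root. Root marker sums were 4.03 to 10.9 CPM in leaf libraries and 519.7 to 965.2 CPM in root libraries. Whole organs were measured, so fewer cells of a type and less RNA per cell cannot be told apart. Where groups of 3 libraries are said to overlap or not, this describes the values of that gene and is no test. The share of all identifiers without overlap was not worked out.

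Of the 4 comparisons with SAB, leaves of day 18 had the most nitrogen genes that passed. There 11 of the 33 members tested fell in SAB-treated plants and 3 rose, where 6.52% of all identifiers fell and 7.91% rose. The 11 were CLC-A, NIA1, NIR1, UPM1, GLT1, ASN2, NLP7, BT2, LBD37, LBD38 and LBD39, and the 3 were NRT1.7, GLN1-1 and GLN1-2. In roots of day 18, 6 of 35 members fell (NRT2.2, UPM1, HRS1, LBD37, LBD38 and LBD39) and 1 rose (AMT1-3), where 0.564% of all identifiers fell and 0.200% rose. In leaves of day 8, 0 of 33 members passed in either direction, where 0.390% of all identifiers rose and 0.0339% fell. In roots of day 8, 0 of 35 members passed, where 0.00527% rose and 0.0685% fell. NRT2.4 and HRS1 did not pass the filter on low values in leaf. The median log2 fold of the members, SAB over untreated, was -0.39 in day 18 leaf and -0.47 in day 18 root, where the median of all identifiers was 0.00 in each. At day 8 the members' median was 0.11 in leaf and 0.14 in root, beside -0.01 and -0.03 for all identifiers.

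**Figure D1:**
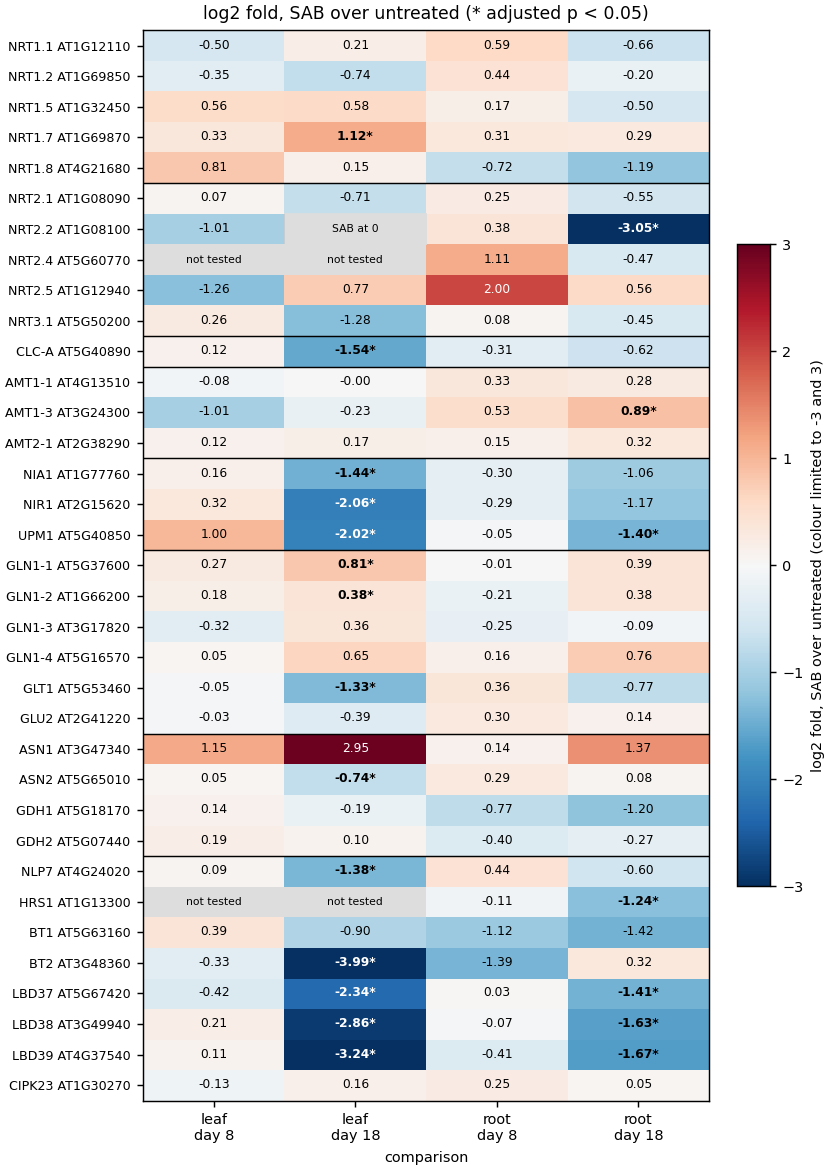
Each cell gives the log2 fold of 1 member (down the page, grouped by role) for SAB over untreated plants, in leaf and root at day 8 and day 18; a star marks an adjusted p below 0.05, and grey marks members not tested or at 0 in every SAB library. The stars stand in the day 18 columns, with 14 in leaf and 7 in root, and 4 members (UPM1, LBD37, LBD38 and LBD39) have one in both.

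Leaf markers were lower in SAB-treated leaves of day 18 too. The 6 markers summed to 62250 to 73660 CPM in the 3 SAB libraries, against 99350 to 131700 CPM in the 3 untreated ones, and 5 of the 6 fell, with log2 folds of -0.56 (LHCA1) to -1.09 (CAB2), while RCA stood at -0.34 with an adjusted p of 0.12. The root marker sums of these leaf libraries were 5.97 to 8.48 CPM in SAB plants and 6.215 to 10.9 CPM in untreated plants, and CASP1 and CASP2 lay between 0 and 0.112 CPM. Of the 11 members that fell, 10 had log2 folds below -1.09, the lowest of the leaf markers, and this order of sizes tests no cause. The part of the photosynthetic markers' shift in the day 18 leaf results was not tested.

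The tested reductases of nitrate and nitrite, NIA1 and NIR1, fell in SAB-treated leaves of day 18, and so did UPM1. NIR1 (AT2G15620), the plastid nitrite reductase, had 118, 350.2 and 373 CPM in SAB-treated leaves of day 18, against 997, 1220 and 1343 CPM in untreated ones (log2 fold -2.06, SE 0.34, adjusted p = 0.00347). NIA1 (AT1G77760), a nitrate reductase, had 367, 663 and 492 CPM in SAB-treated leaves, against 1551, 1006 and 1619 CPM in untreated leaves (log2 fold -1.44, SE 0.22, adjusted p = 0.0022). UPM1 (AT5G40850), an enzyme of the branch that makes siroheme, the cofactor of nitrite reductase, had 25.3, 36.2 and 41 CPM in SAB-treated leaves and 186, 137 and 94.6 CPM in untreated leaves (log2 fold -2.02, SE 0.29, adjusted p = 0.00164). For these 3 genes every SAB library lay below every untreated library. In SAB-treated leaves of day 18, replicate 1 was the lowest library for all 3.

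Of the same 3 genes, UPM1 fell in SAB-treated roots of day 18, and NIR1 and NIA1 did not pass there in edgeR. UPM1 had 47.2, 69.3 and 83.5 CPM in SAB-treated roots of day 18 and 169.6, 169 and 195 CPM in untreated roots (log2 fold -1.4, SE 0.21, adjusted p = 0.016), a call lost in 3 of 14 alternative settings. NIR1 had 224, 423 and 586 CPM in SAB-treated roots, against 842, 969.7 and 996 CPM in untreated roots, groups that did not overlap, with an adjusted p of 0.0949 at a log2 fold of -1.17. NIA1 averaged 328 ± 100.1 CPM in SAB-treated roots and 694 ± 218 CPM in untreated roots (SD, n = 3 each), also with no overlap, at a log2 fold of -1.06 (adjusted p = 0.303). At day 8 the picture in leaf was the reverse in sign for UPM1: it had 106, 187 and 162 CPM in SAB-treated leaves, all above the 73, 87 and 64.9 CPM of untreated leaves (log2 fold 1.0, SE 0.28, adjusted p = 0.221), which did not pass. NIR1 had 1017, 1177 and 1127 CPM in SAB-treated and 991, 859 and 788 CPM in untreated leaves of day 8, all SAB libraries above all untreated ones (adjusted p = 0.888). NIA1 had 1038, 1090 and 989.5 CPM in SAB-treated and 919, 992 and 856 CPM in untreated leaves of day 8, which overlapped (adjusted p = 0.93).

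**Figure D2:**
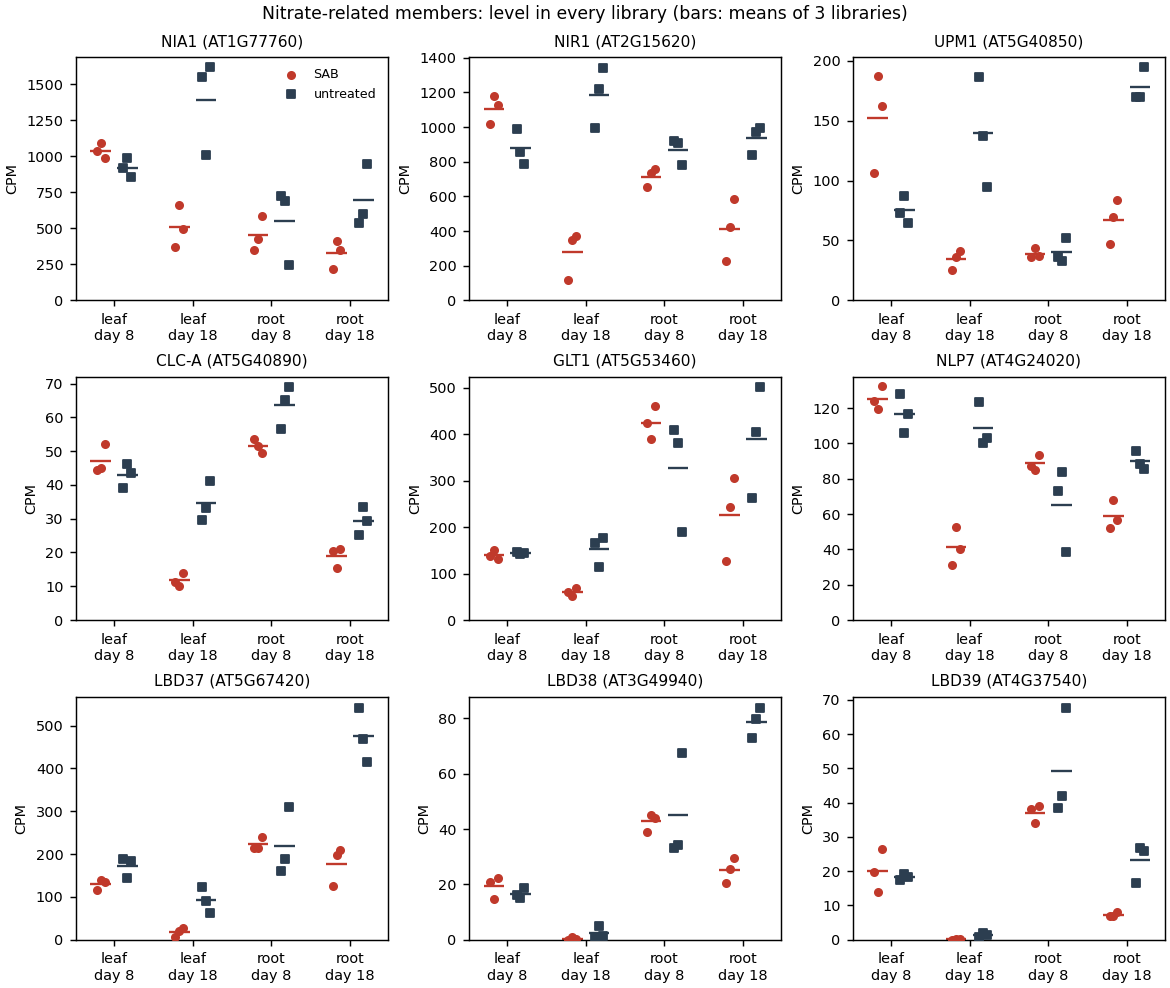
Levels in CPM (linear axes that start at 0) of 9 members in every library, by tissue and day, with SAB libraries as circles left of untreated libraries as squares and a bar at each mean of 3. At day 18 in leaf, the SAB libraries of all 9 members lie below the untreated ones, for example 118 to 373 CPM against 997 to 1343 CPM for NIR1. All 9 are members called lower there, so this order of the libraries adds no support.

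CLC-A (AT5G40890), the tonoplast exchanger that loads nitrate into the vacuole, had the smallest adjusted p of the members in day 18 leaf. It had 11.2, 10.1 and 14 CPM in SAB-treated leaves, against 29.7, 33.1 and 41.2 CPM in untreated leaves (log2 fold -1.54, SE 0.15, adjusted p = 0.000321), with no overlap. In roots of day 18 it had 20.4, 15.3 and 21.1 CPM in SAB plants and 25.1, 33.6 and 29.4 CPM in untreated plants (log2 fold -0.62, SE 0.15, adjusted p = 0.0954), again with no overlap. DESeq2 called it there (log2 fold -0.60, adjusted p = 0.0043), and edgeR did not. At day 8 its level was 44.5, 44.9 and 52 CPM in SAB-treated and 39, 46 and 43.4 CPM in untreated leaves, which overlapped, and 51.5 ± 1.97 CPM in SAB-treated and 63.6 ± 6.34 CPM in untreated roots (SD, n = 3 each).

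Among the nitrate transporters, 1 of 5 NRT1 members and 0 of 4 tested NRT2 and NRT3 members passed in edgeR in day 18 leaf, and that 1 rose. DESeq2 also called NRT1.2 (log2 fold -0.74, adjusted p = 0.0352), NRT3.1 (log2 fold -1.28, adjusted p = 0.0253) and NRT2.2 (adjusted p = 0.00327) lower there. NRT1.7 (AT1G69870), which loads nitrate into the phloem of old leaves for export to young ones, had 98.3, 104 and 113 CPM in SAB-treated leaves of day 18 and 44.2, 34.4 and 69 CPM in untreated leaves (log2 fold 1.118, SE 0.28, adjusted p = 0.0227). Its level in leaves of day 8 was 16.3 ± 2.11 CPM in SAB plants and 12.8 ± 4.81 CPM in untreated plants (SD, n = 3 each). The day 18 leaf call of NRT1.7 was lost in 4 of 14 alternative settings, with adjusted p of up to 0.0748. The other 4 NRT1 members had day 18 leaf log2 folds of 0.21 (NRT1.1, AT1G12110, the dual-affinity transporter and nitrate sensor), -0.74 (NRT1.2, AT1G69850, a low-affinity uptake transporter), 0.58 (NRT1.5, AT1G32450, which loads nitrate into the xylem) and 0.15 (NRT1.8, AT4G21680, which removes it from the xylem). Their adjusted p were 0.0719 for NRT1.2 and 0.423 to 0.918 for the other 3.

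Of the high-affinity NRT2 transporters, NRT2.2 (AT1G08100) fell in SAB-treated roots of day 18. NRT2.2 had 3.49, 1.9 and 0.887 CPM in SAB-treated roots of day 18, against 18.5, 14.1 and 19.8 CPM in untreated roots (log2 fold -3.05, SE 0.51, adjusted p = 0.0224), so that even the highest SAB library lay far below the lowest untreated one. NRT2.2 lost its root call in 7 of 14 alternative settings, with adjusted p of up to 0.208. In leaves of day 18 it was listed at 0 in all 3 SAB libraries and at 1.66, 2.08 and 0.369 CPM in untreated ones. Its neighbour in family, NRT2.1 (AT1G08090), the main inducible high-affinity nitrate transporter of Arabidopsis roots, had 103, 194 and 242 CPM in SAB-treated roots and 293, 229 and 277 CPM in untreated roots of day 18 (log2 fold -0.55, SE 0.29, adjusted p = 0.481), where the groups overlapped. NRT3.1 (AT5G50200), the partner protein that NRT2 transporters need, averaged 158 ± 40.7 CPM in SAB-treated and 218 ± 9.93 CPM in untreated roots of day 18 (SD, n = 3 each), with an adjusted p of 0.308. NRT2.1 and NRT2.2 are near copies in Arabidopsis, so an estimation that shares reads out among similar sequences leaves their separate values uncertain.

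NRT2.4 (AT5G60770) and NRT2.5 (AT1G12940), which Arabidopsis uses under nitrogen starvation, passed in edgeR in no comparison with SAB. NRT2.5 had 0.727, 1.56 and 1.45 CPM in SAB-treated roots of day 8, all above the 0.111, 0.334 and 0.493 CPM of untreated roots (log2 fold 2.0, SE 0.43, adjusted p = 0.094), which did not pass. At day 18 it had 49.5, 49.3 and 47.7 CPM in SAB-treated and 45.2, 26.9 and 27.9 CPM in untreated roots (log2 fold 0.56, SE 0.32, adjusted p = 0.523). NRT2.4 averaged 1.58 ± 0.112 CPM in SAB-treated and 0.731 ± 0.199 CPM in untreated roots of day 8, and 25.6 ± 9.94 CPM in SAB-treated and 35.8 ± 7.52 CPM in untreated roots of day 18 (SD, n = 3 each), with adjusted p of 0.228 and 0.555.

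Of the 3 ammonium transporters, 1 rose in SAB-treated plants, in roots of day 18. AMT1-3 (AT3G24300), a high-affinity ammonium transporter of roots, had 46.9, 34.5 and 31.6 CPM in SAB-treated roots of day 18, against 24.7, 17.8 and 19.2 CPM in untreated roots (log2 fold 0.89, SE 0.17, adjusted p = 0.0461), all SAB libraries above all untreated ones. It was the only member called higher in root. Its call was lost in 7 of 14 alternative settings, among them library totals only and the replicate block, with adjusted p of up to 0.232. At day 8 its root level was 18.6 ± 1.02 CPM in SAB plants and 12.9 ± 1.76 CPM in untreated plants (SD, n = 3 each), also without overlap, at a log2 fold of 0.53 (adjusted p = 0.279). AMT1-1 (AT4G13510), another high-affinity ammonium transporter, had log2 folds of -0.08 to 0.33 over the 4 comparisons, and AMT2-1 (AT2G38290), an ammonium transporter of a separate subfamily, 0.12 to 0.32, with adjusted p of 0.446 or more for both.

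In the assimilation of ammonium, 1 glutamate synthase fell and 2 cytosolic glutamine synthetases rose in SAB-treated leaves of day 18. GLT1 (AT5G53460), the NADH-dependent glutamate synthase, had 59.4, 51.1 and 68.5 CPM in SAB-treated leaves and 166, 114 and 176 CPM in untreated leaves of day 18 (log2 fold -1.33, SE 0.16, adjusted p = 0.000668), with no overlap. GLU2 (AT2G41220), a ferredoxin-dependent glutamate synthase, averaged 493 ± 84.1 CPM in SAB-treated and 652 ± 116 CPM in untreated leaves (SD, n = 3 each), which did not pass (log2 fold -0.39 (adjusted p = 0.133)). The cytosolic glutamine synthetases GLN1-1 (AT5G37600) and GLN1-2 (AT1G66200) rose: GLN1-1 averaged 566 ± 74.1 CPM in SAB-treated and 326 ± 62.4 CPM in untreated leaves (log2 fold 0.81, SE 0.19, adjusted p = 0.0202). GLN1-2 averaged 1173 ± 58.9 CPM in SAB-treated and 912 ± 95.1 CPM in untreated leaves (log2 fold 0.38, SE 0.11, adjusted p = 0.0403). For GLN1-1 and GLN1-2 every SAB library lay above every untreated one. Of 14 alternative settings, the call was lost in 5 for GLN1-1 and in 6 for GLN1-2. For GLN1-2 the log2 fold went down to 0.08 and the adjusted p up to 0.724.

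The other 2 cytosolic glutamine synthetases did not pass. GLN1-4 (AT5G16570) averaged 589 ± 55.5 CPM in SAB-treated and 379.9 ± 43.2 CPM in untreated leaves of day 18 (SD, n = 3 each), without overlap but with an SE of 0.39 on a log2 fold of 0.65. GLN1-3 (AT3G17820) had 35.5, 31.1 and 32.5 CPM in SAB-treated and 35.7, 44 and 42.4 CPM in untreated leaves of day 8 (log2 fold -0.32, SE 0.13, adjusted p = 0.518), and 51.6 ± 8.98 CPM in SAB-treated and 40.8 ± 1.64 CPM in untreated leaves of day 18. Its fold was thus below 0 at day 8 and above 0 at day 18, and neither passed. In roots of day 18 the 6 assimilation members had log2 folds of -0.77 (GLT1) to 0.76 (GLN1-4), and 0 of the 6 passed.

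Asparagine carries nitrogen between organs, and glutamate dehydrogenase releases ammonium from glutamate. ASN2 (AT5G65010), an asparagine synthetase, had 52.6, 43.9 and 61.5 CPM in SAB-treated leaves and 89, 94.9 and 82.4 CPM in untreated leaves of day 18 (log2 fold -0.74, SE 0.12, adjusted p = 0.00303), the smallest fold among the 11 members that fell. ASN1 (AT3G47340), the asparagine synthetase induced in darkness and by carbon shortage, varied most between replicates, with 0, 5.41 and 0.882 CPM in SAB-treated and 0.525, 0.223 and 0.0462 CPM in untreated leaves of day 18 (log2 fold 2.95, SE 1.51, adjusted p = 0.228). One SAB library set its high mean, and the groups overlapped. GDH1 (AT5G18170), a glutamate dehydrogenase, averaged 163 ± 77.6 CPM in SAB-treated and 379 ± 47.5 CPM in untreated roots of day 18 (SD, n = 3 each), with no overlap and log2 fold -1.2 (adjusted p = 0.0966). GDH2 (AT5G07440), the other glutamate dehydrogenase, had log2 folds of -0.4 to 0.19 over the 4 comparisons.

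In SAB-treated leaves of day 18, 5 of 7 tested regulators fell, and BT2, LBD39, LBD38 and LBD37 had the largest falls of the members called there. NLP7 (AT4G24020), the nitrate-sensing activator, had 31.2, 52.9 and 40.3 CPM in SAB-treated leaves and 123, 100.5 and 103 CPM in untreated leaves of day 18 (log2 fold -1.38, SE 0.17, adjusted p = 0.000907). BT2 (AT3G48360), a nitrate-induced BTB-TAZ protein that restrains nitrate use, had 0.115, 0.0381 and 0.153 CPM in SAB-treated and 2.14, 2.05 and 0.877 CPM in untreated leaves of day 18 (log2 fold -3.99, SE 0.48, adjusted p = 0.000723). NLP7 and BT2 showed no overlap between the groups. The levels of BT2 rest on few counts, 3.43, 1.39 and 3.94 estimated counts in SAB-treated leaves and 53.41, 55.2 and 19.41 in untreated leaves, and 1 estimated count is not shown to be 1 read. BT1 (AT5G63160), its close relative, averaged 5.36 ± 2.21 CPM in SAB-treated and 10.2 ± 6.0 CPM in untreated leaves (SD, n = 3 each), with overlap and an adjusted p of 0.229. CIPK23 (AT1G30270), the kinase that acts on NRT1.1 and AMT transporters, had log2 folds of -0.13 to 0.25 over the 4 comparisons, all past no threshold.

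LBD37 (AT5G67420), LBD38 (AT3G49940) and LBD39 (AT4G37540), the repressors of nitrogen-responsive genes, fell in SAB plants of day 18 in leaf and in root. In roots LBD37 had 126, 198 and 209 CPM in SAB plants and 541, 469.7 and 416 CPM in untreated plants (log2 fold -1.41, SE 0.25, adjusted p = 0.0271). LBD38 had 20.6, 25.5 and 29.7 CPM in SAB-treated roots and 73, 79.8 and 83.7 CPM in untreated roots (log2 fold -1.63, SE 0.24, adjusted p = 0.0146). LBD39 had 6.8, 6.89 and 7.98 CPM in SAB-treated roots and 16.6, 26.9 and 26 CPM in untreated roots (log2 fold -1.67, SE 0.23, adjusted p = 0.0116). In all 3 the SAB roots lay wholly below the untreated roots. Of 14 alternative settings, the root call was lost in 6 for LBD37, 4 for LBD38 and 1 for LBD39.

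In leaves of day 18 the same 3 genes also fell. The difference of the SAB effect between the tissues did not pass (adjusted p of 0.272 to 0.621). LBD37 had 6.32, 21.1 and 26.6 CPM in SAB-treated and 123, 90 and 63.5 CPM in untreated leaves (log2 fold -2.34, SE 0.43, adjusted p = 0.00562). LBD39 averaged 0.14 ± 0.116 CPM in SAB-treated and 1.37 ± 0.68 CPM in untreated leaves (log2 fold -3.24, SE 0.55, adjusted p = 0.00403), and LBD38 0.331 ± 0.447 and 2.43 ± 2.22 CPM (log2 fold -2.86, SE 0.86, adjusted p = 0.048). LBD38 and LBD39 were thus near 0 in these leaves, with 26 and 10 estimated counts summed over the SAB libraries, against 187 and 102 over the untreated ones. With limma-voom neither LBD38 nor LBD39 passed in day 18 leaf. LBD38 lost its call in 8 of 14 alternative settings, among them those without SAB replicate 1 or 3 or untreated replicate 2, and its adjusted p reached 0.249. LBD39 lost its call in 2 of 14. At day 8 the 3 genes had adjusted p of 0.543 or more in leaf and root, with log2 folds of -0.42 to 0.21.

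HRS1 (AT1G13300), a repressor that links nitrate and phosphate signals in roots, had 8.67, 9.65 and 9.73 CPM in SAB-treated roots of day 18, against 16.7, 21.4 and 29.2 CPM in untreated roots (log2 fold -1.24, SE 0.20, adjusted p = 0.0201), with no overlap. HRS1 lost its call in 7 of 14 alternative settings, with adjusted p of up to 0.197. At day 8 it averaged 27.4 ± 3.69 CPM in SAB-treated and 29.5 ± 4.7 CPM in untreated roots (SD, n = 3 each). BT2 had 1.38, 1.97 and 1.9 CPM in SAB-treated roots of day 8, all below the 4.41, 5.63 and 3.62 CPM of untreated roots (log2 fold -1.39, SE 0.23, adjusted p = 0.085), which did not pass. Among roots of day 18, the leaf markers summed to 35.2 to 72.2 CPM in SAB plants and 40.4 to 574.8 CPM in untreated plants, and none of the 6 passed a test. The root markers summed to 565.2 to 880.1 CPM in SAB-treated and 519.7 to 586.7 CPM in untreated roots, with none of the 5 past the test. Their part in the root results was not tested.

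The count of 7 in day 18 root changed when single libraries were left out. It was 1 without SAB replicate 2 and 1 without untreated replicate 2, with LBD39 the gene left in both cases, and 4 without SAB replicate 1. In day 18 leaf the count of 14 was 11 to 13 when any 1 library was left out, and NRT1.7, GLN1-1, GLN1-2 and LBD38 were the only calls lost. Of the 11 members lower in leaf, 4 were also among the 5 lower in root that were tested in both tissues, which is 36.4% of the leaf calls and 80.0% of the root calls (UPM1, LBD37, LBD38 and LBD39). Of all identifiers tested in both tissues, 1114 were lower in leaf and 96 in root, and the 40 lower in both are 3.6% of the leaf calls and 41.7% of the root calls. No member was called in opposite directions. DESeq2 also called 5 members lower in day 18 root: NRT1.1 (adjusted p = 0.0244), CLC-A (adjusted p = 0.0043), NIR1 (log2 fold -1.15, adjusted p = 0.0023), GDH1 (adjusted p = 0.00238) and BT1 (adjusted p = 0.0311). With only the 6 libraries compared in each fit, 7 members were called in day 18 leaf and 0 in day 18 root. How many of all identifiers were called by DESeq2 or in the fits with fewer libraries is not given here.

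Most identifiers of the set label several rows, and these did not always move alike. Of 124 member rows tested in day 18 leaf, 23 fell and 4 rose, where 2.59% of all rows fell and 2.89% rose. Of 158 tested in day 18 root, 3 fell and 1 rose, where 0.266% of all rows fell and 0.122% rose. Among rows with at least 5% of the leaf sum, NIR1 had 4 of 4 rows called lower (log2 folds -2.24 to -1.91), NIA1 had 4 of 4 (-2.32 to -1.19) and LBD37 had 2 of 2 (-3.56 and -2.20). NLP7 had 4 of 5 and GLT1 had 3 of 4 rows called lower, with all rows below 0. A minor row of NIA1, row 15 with 1.43% of the leaf sum, was called in the other direction at day 18. It had 32 ± 25.1 CPM in SAB-treated leaves and 9.26 ± 6.87 CPM in SAB-treated roots (SD, n = 3 each), and was listed at 0 in every untreated library of day 18 (adjusted p = 0.038 in leaf and 0.0463 in root). It is the only member row called higher in day 18 root.

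Other sums were carried by 1 row. Row 5 of CLC-A held 89.4% of its leaf sum and had a log2 fold of -1.92 in day 18 leaf. Row 2 of GLN1-2 alone rose, at 436.8 ± 68.2 CPM in SAB-treated and 199.3 ± 35.5 CPM in untreated leaves of day 18 (log2 fold 1.14, adjusted p = 0.00529), while its rows 1 and 3 had log2 folds of 0.02 and 0.08. In GLN1-4, row 4 rose (369.8 ± 46.4 CPM in SAB-treated and 171.3 ± 25.3 CPM in untreated leaves, log2 fold 1.118, adjusted p = 0.00797), although the sum did not pass and 3 of its 5 main rows were below 0. For LBD38, 0 of 5 main rows passed in day 18 leaf and all 5 were below 0. Where an estimation divides reads among near-identical rows, a single row's change is uncertain.

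**Figure D3:**
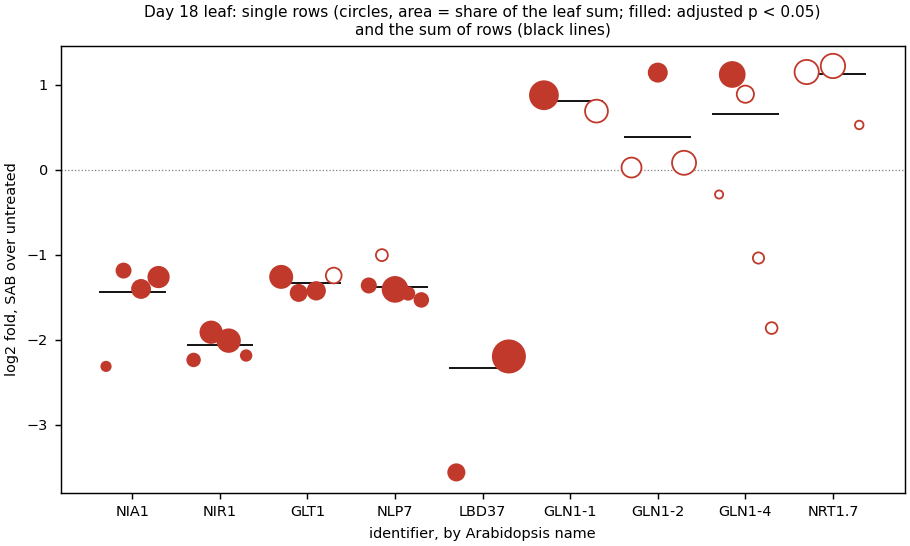
Log2 folds of SAB over untreated leaves of day 18 for single rows (circles, with area in proportion to the row's share of the leaf sum, filled where adjusted p is below 0.05) and for the sum of rows (black lines) of 9 members, with rows of at least 5% of the leaf sum shown. All 4 NIA1 and all 4 NIR1 rows lie below -1, and the rows of GLN1-4 lie between -1.86 and 1.118.

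The difference of the SAB effect between day 18 and day 8 was tested directly. In leaf it passed for 9 of 33 members, all with a lower fold at day 18, where 2.46% of all identifiers passed in either direction. These were UPM1 (difference of log2 folds -3.02 (SE 0.40, adjusted p = 0.0106)), BT2 (-3.65 (SE 0.55, adjusted p = 0.0167)), LBD39 (-3.35 (SE 0.66, adjusted p = 0.0365)), NIR1 (-2.38 (SE 0.47, adjusted p = 0.0358)), CLC-A (-1.66 (SE 0.21, adjusted p = 0.00947)), NIA1 (-1.59 (SE 0.30, adjusted p = 0.0322)), NLP7 (-1.47 (SE 0.24, adjusted p = 0.0187)), GLT1 (-1.27 (SE 0.22, adjusted p = 0.022)) and ASN2 (-0.79 (SE 0.17, adjusted p = 0.04)). At day 8, NLP7 had 124, 119.5 and 133 CPM in SAB-treated and 128, 106 and 117 CPM in untreated leaves. GLT1 had 137, 150.5 and 131 CPM in SAB-treated and 145, 142 and 143 CPM in untreated leaves of day 8. LBD39 had 19.6, 14 and 26.3 CPM in SAB-treated and 17.4, 19.1 and 18.4 CPM in untreated leaves of day 8. These 3 genes had overlapping groups at day 8, as had BT2, with 227, 294 and 243 CPM in SAB-treated and 268, 363 and 321 CPM in untreated leaves. The count of 9 was 3 or 4 when any 1 library of day 8 was left out.

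In root, 3 of 35 members had a SAB effect that differed between the days, where 1.07% of all identifiers passed in either direction. NRT1.1 had 383, 393 and 343 CPM in SAB-treated and 271, 264 and 204 CPM in untreated roots of day 8, and 97.1, 95 and 111 CPM in SAB-treated and 120.5, 185 and 176 CPM in untreated roots of day 18. The SAB roots were thus above the untreated ones at day 8 and below them at day 18, without overlap, and the difference of the folds was -1.25 (SE 0.25, adjusted p = 0.0467). NRT2.2 had 7.39, 9.89 and 7.79 CPM in SAB-treated and 10.4, 5.55 and 3.1 CPM in untreated roots of day 8, overlapping groups, and its difference was -3.42 (SE 0.68, adjusted p = 0.0464). For BT2, SAB roots of day 18 had 1.92, 2.06 and 1.5 CPM and untreated roots 1.65, 1.33 and 1.47 CPM, against the lower SAB values at day 8 given above, a difference of 1.7 (SE 0.33, adjusted p = 0.0423). The count of 3 was 5 without untreated replicate 3 of day 8, but NRT1.1 and NRT2.2 lost their calls in that fit. Of the 3 genes, only BT2 kept its call there. The left-out library had a mean rank correlation with its group of 0.962, against 0.975 and 0.976 for the other 2 replicates. The count was 0 without any other single library of day 8. It was 0 without replicate 2 or 3 of either group of day 18, and 1 without untreated replicate 1 of day 18.

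Between tissues, the SAB effect at day 18 differed for 2 of 35 members, both higher in root, where 1.02% of all identifiers passed in either direction. BT2 had a root minus leaf difference of 4.32 (SE 0.51, adjusted p = 0.000433), and CLC-A of 0.92 (SE 0.22, adjusted p = 0.0489). The call of CLC-A was lost, leaving a count of 1, without SAB leaf replicate 1 or 2, untreated leaf replicate 2 or 3, or replicate 1 or 3 of either root group of day 18. With the replicate number as a block, which pairs leaf and root at day 18, 4 members passed: BT2 (4.27, adjusted p = 0.00719), CLC-A (0.91, adjusted p = 0.0332), NIR1 (0.95, adjusted p = 0.038) and ASN2 (0.78, adjusted p = 0.0499). At day 8, 0 of 35 members passed, where 2.08% of all identifiers did, and 8 members had an unadjusted p below 0.05. DESeq2 called 2 of them there, GDH2 and BT2. How many of all identifiers passed with the block or with DESeq2 is not given here, so these counts show no gain particular to the members.

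For the leaf comparison of day 8, in which 0 members passed, 2 members had an unadjusted p below 0.05 in edgeR, limma-voom called 0, and DESeq2 called 1, UPM1 (log2 fold 1.01, adjusted p = 0.0241). For roots of day 8, 11 members had an unadjusted p below 0.05 in edgeR, limma-voom called 0, and DESeq2 called 3: BT2 (-1.38, adjusted p = 0.000115), NRT2.5 (2.01, adjusted p = 0.000188) and GLU2 (0.31, adjusted p = 0.0487). How many of all identifiers DESeq2 and limma-voom called at day 8 is not given here.

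The nitrogen genes also changed with age. In untreated leaves 10 of 33 members were higher and 9 lower at day 18 than at day 8, where 20.0% of all identifiers were higher and 20.5% lower. BT2 had 2.14, 2.05 and 0.877 CPM at day 18 and 268, 363 and 321 CPM at day 8 in untreated leaves (log2 fold -7.53, SE 0.32, adjusted p = 1.61e-07). BT1 had 5.94, 7.55 and 17 CPM at day 18 and 117, 281 and 194 CPM at day 8 (log2 fold -4.29, SE 0.49, adjusted p = 7.03e-05). LBD39 had 0.687, 2.05 and 1.39 CPM at day 18 and 17.4, 19.1 and 18.4 CPM at day 8 (log2 fold -3.72, SE 0.41, adjusted p = 5.68e-05). These 3 regulators were lower in every library of day 18. ASN1 had 0.525, 0.223 and 0.0462 CPM at day 18 and 0.808, 11.4 and 2.38 CPM at day 8 (log2 fold -4.15, SE 1.52, adjusted p = 0.0498). The call of ASN1 was lost in 9 of 13 alternative settings, among them limma-voom and those without any single library but replicate 1 of day 8, with adjusted p of up to 0.32. NRT1.8 had 7.39, 16.3 and 64.2 CPM at day 18 and 2.02, 3.39 and 0.943 CPM at day 8 (log2 fold 3.77, SE 0.82, adjusted p = 0.00414), and AMT1-3 had 1.05, 0.968 and 1.02 CPM and 0.0505, 0.114 and 0.113 CPM (log2 fold 3.35, SE 0.78, adjusted p = 0.00576). NRT1.8 and AMT1-3 were higher in every library of day 18, with NRT1.8 spread widest among the replicates and not called by limma-voom.

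In SAB-treated leaves 11 of 33 members were higher and 16 lower at day 18, where 25.9% of all identifiers were higher and 23.6% lower. NIA1, NIR1 and UPM1 had day 18 over day 8 log2 folds of -1.0 (adjusted p = 0.00279), -1.95 (adjusted p = 0.000727) and -2.12 (adjusted p = 0.000148) in SAB-treated leaves. In untreated leaves the same 3 had 0.59 (adjusted p = 0.0472), 0.43 (adjusted p = 0.326) and 0.9 (adjusted p = 0.0257). The call of NIA1 in untreated leaves was lost in 8 of 13 alternative settings, among them those without any single library but replicate 2 of day 18. That of UPM1 was lost in 4 of 13, those without replicate 1 or 3 of day 8 or replicate 1 or 2 of day 18. The age comparisons of SAB-treated and untreated leaves use different libraries, and the test of their difference is the day comparison given above. Members that rose with age in both treatments were NRT1.5, NRT1.7, NRT1.8, AMT1-3, GLN1-1, GLN1-2 and GLN1-4, for example NRT1.7 at 2.72 (SE 0.29, adjusted p = 2.89e-05) in SAB-treated and 1.94 (SE 0.29, adjusted p = 0.000384) in untreated leaves.

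In untreated roots 9 of 35 members were higher and 6 lower at day 18, where 8.22% of all identifiers were higher and 8.25% lower. The largest rises were in NRT2.5 and NRT2.4. NRT2.5 had 45.2, 26.9 and 27.9 CPM at day 18 and 0.111, 0.334 and 0.493 CPM at day 8 (log2 fold 6.78, SE 0.44, adjusted p = 6.27e-05). NRT2.4 had 29.6, 33.5 and 44.1 CPM at day 18 and 0.509, 0.792 and 0.892 CPM at day 8 in untreated roots (log2 fold 5.65, SE 0.35, adjusted p = 6.27e-05). No library of day 8 came near the day 18 levels for either gene. GLN1-4 had 560.0, 378 and 354 CPM at day 18 and 87.6, 79.8 and 109 CPM at day 8 (log2 fold 2.27, SE 0.27, adjusted p = 0.000569). UPM1 had 169.6, 169 and 195 CPM at day 18 and 36.5, 32.8 and 51.8 CPM at day 8 in untreated roots (log2 fold 2.19, SE 0.22, adjusted p = 0.000226). GLN1-4 and UPM1 were higher in all 3 libraries of day 18. NRT1.8 had 150.5, 159.5 and 239 CPM at day 18 and 103, 68.5 and 39.5 CPM at day 8 (log2 fold 1.41, SE 0.39, adjusted p = 0.0328), and BT2 1.65, 1.33 and 1.47 CPM and 4.41, 5.63 and 3.62 CPM (log2 fold -1.58, SE 0.24, adjusted p = 0.0019), also without overlap. The call of NRT1.8 in root was lost without replicate 2 or 3 of either day, with the most abundant row and with the replicate block.

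In SAB-treated roots 6 of 35 members were higher and 9 lower at day 18, where 15.3% of all identifiers were higher and 12.1% lower. NRT2.5 (5.34 (SE 0.39, adjusted p = 2.26e-05)), NRT2.4 (4.08 (SE 0.32, adjusted p = 3.37e-05)) and GLN1-4 (2.87 (SE 0.27, adjusted p = 7.92e-05)) rose there too. NRT1.1 had 97.1, 95 and 111 CPM at day 18 and 383, 393 and 343 CPM at day 8 in SAB-treated roots (log2 fold -1.83, SE 0.18, adjusted p = 9.75e-05), beside -0.58 (adjusted p = 0.0478) in untreated roots, a call lost in 7 of 13 alternative settings, among them those without replicate 1 or 2 of day 8 or replicate 1 or 3 of day 18.

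**Figure D4:**
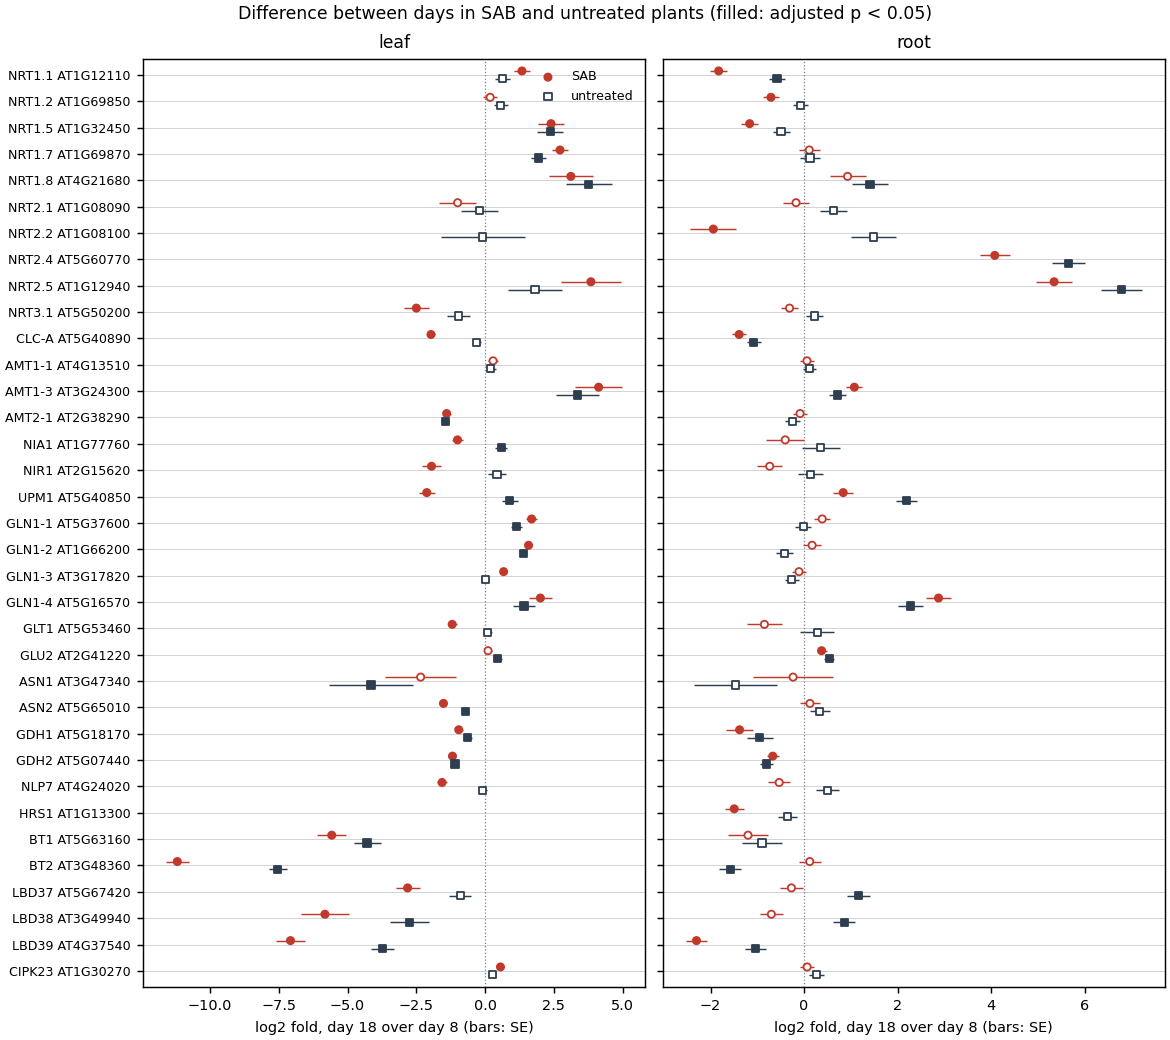
Log2 folds of day 18 over day 8 (x axis, with SE) for each member (down the page) in leaf (left) and root (right), with SAB plants as circles above untreated plants as squares, filled where adjusted p is below 0.05. BT2 lies farthest to the left in leaf (-11.19 in SAB-treated and -7.53 in untreated leaves), and NRT2.5 farthest to the right in root (5.34 in SAB-treated and 6.78 in untreated roots); members at 0 in every library of a group are not drawn.

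Most members had higher levels in root than in leaf. In untreated plants of day 8, 7 of 35 were higher and 19 lower in leaf than in root, where 29.0% of all identifiers were higher and 32.7% lower. In untreated plants of day 18, 4 were higher and 22 lower, where 28.0% and 33.4% of all identifiers were. The fit took leaf and root libraries as independent, although those of day 18 are paired by replicate number. With the replicate block, all 26 of these day 18 calls were kept. With scaling by library totals only, 3 were higher and 24 lower at day 8, and 0 higher and 27 lower at day 18, so the calls higher in leaf depend on the scaling. That scaling moved all identifiers toward root as well, with shifts of their median log2 fold of -0.75 at day 8 and -0.76 at day 18. The shares of all identifiers called under it are not given here. HRS1 was listed at 0 in every untreated leaf library, against 25.8 to 34.8 CPM in untreated roots of day 8 and 16.7 to 29.2 CPM at day 18. NRT2.4 was listed at 0 in untreated leaves of day 18 and had 29.6, 33.5 and 44.1 CPM in untreated roots. NRT1.5 had 2.83, 1.6 and 2.71 CPM in untreated leaves of day 8 and 572, 597 and 891 CPM in untreated roots (log2 fold -8.18, SE 0.48, adjusted p = 1.37e-11), and at day 18 8.65, 7.78 and 20.8 CPM in leaves and 558, 397 and 463 CPM in roots (log2 fold -5.26, SE 0.41, adjusted p = 1.19e-09). These 3 genes did not overlap between the tissues at either day.

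Only ASN2 and GLU2 were called higher in leaf at both days in untreated plants. ASN2 had 154, 148 and 139 CPM in leaves and 39.5, 40.5 and 36.8 CPM in roots of day 8 (log2 fold 1.91, SE 0.19, adjusted p = 2.53e-08), and 89, 94.9 and 82.4 CPM in leaves and 43.7, 55.8 and 43.9 CPM in roots of day 18 (log2 fold 0.89, SE 0.18, adjusted p = 0.000275). GLU2 had 469.6, 505 and 442 CPM in leaves and 297, 299 and 349.9 CPM in roots of day 8 (log2 fold 0.58, SE 0.14, adjusted p = 0.00157), and 649, 538 and 769 CPM in leaves and 414, 453 and 469.5 CPM in roots of day 18 (log2 fold 0.55, SE 0.14, adjusted p = 0.00256). The direction for GLU2 turned when only library totals were used for scaling (-0.17 at day 8 and -0.23 at day 18), and ASN2 was no longer called at day 18 (log2 fold 0.13, adjusted p = 0.542), so under that scaling neither was called higher at both days. This scaling moved the median log2 fold of all identifiers by -0.75 and -0.76. A single row, row 6, made up 93.5% of the leaf sum of GLU2 and 9.03% of its root sum.

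In SAB-treated plants of day 8, 7 members were higher and 22 lower in leaf, where 29.6% of all identifiers were higher and 31.7% lower. In SAB-treated plants of day 18, 1 was higher, NRT1.7 (log2 fold 1.73, SE 0.27, adjusted p = 1.36e-05), and 22 lower, where 29.7% of all identifiers were higher and 31.8% lower. Leaf and root were not paired in this fit either, and the replicate block kept all 23 calls of day 18. With scaling by library totals only, 4 were higher and 25 lower at day 8, and 1 higher and 32 lower at day 18. The median log2 fold of all identifiers moved by -0.95 at day 8 and -0.56 at day 18 under that scaling. The leaf over root log2 fold of BT2 was 7.18 in SAB-treated and 6.12 in untreated plants of day 8, and -4.12 in SAB-treated and 0.2 in untreated plants of day 18.

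**Figure D5:**
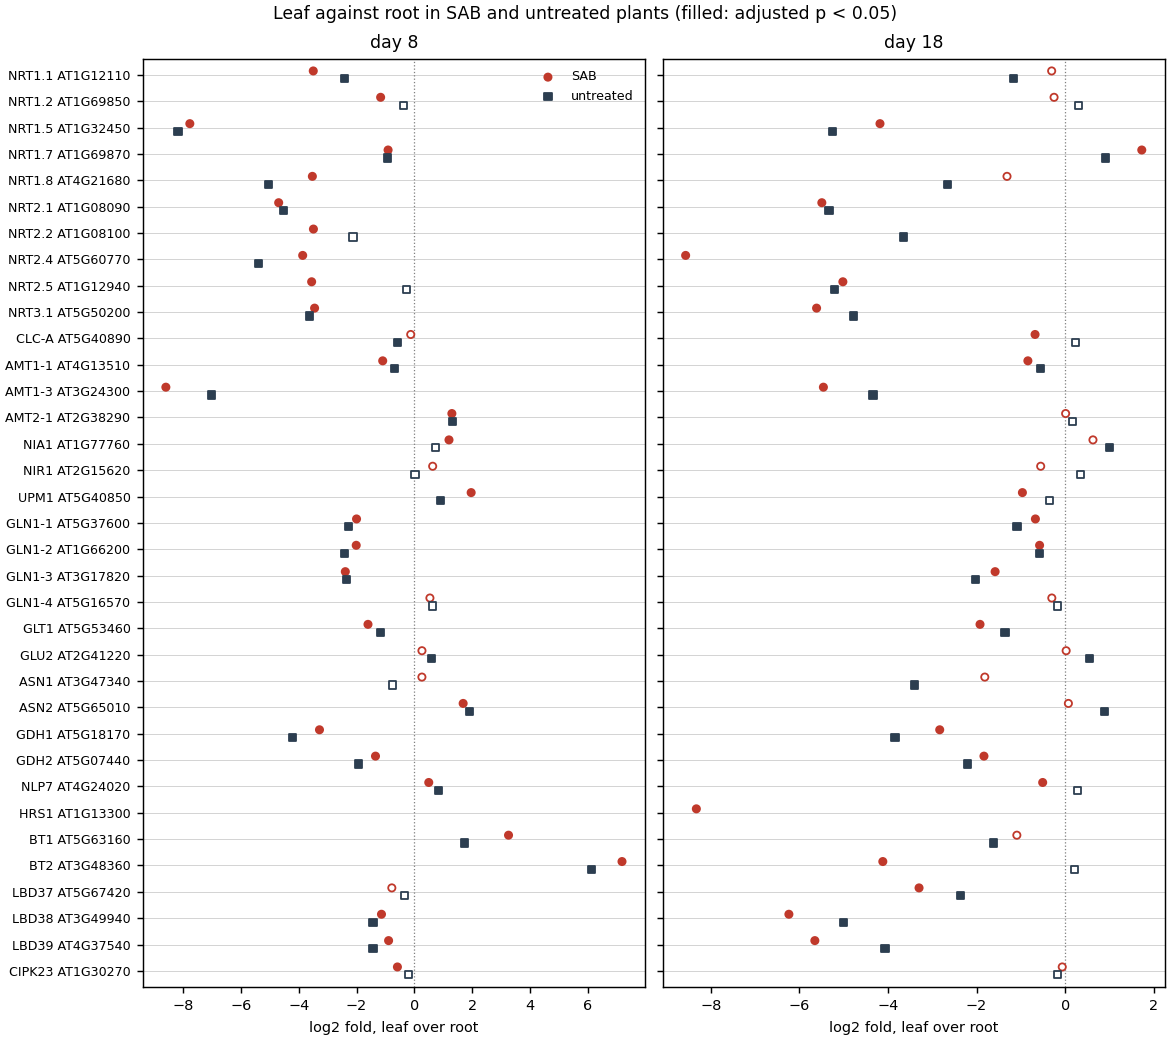
Log2 folds of leaf over root (x axis) for each member (down the page) at day 8 (left) and day 18 (right), with SAB plants as circles above untreated plants as squares, filled where adjusted p is below 0.05. Most points lie left of 0, and BT2 lies right of 0 at day 8 (7.18 in SAB-treated and 6.12 in untreated plants); members at 0 in every library of a group are not drawn.

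A further 44 genes of nitrogen transport, assimilation and signaling were listed, and 43 of them had rows. In leaves of day 18, 3 of 39 tested rose and 7 fell in SAB plants, where 7.91% of all identifiers rose and 6.52% fell. Those that fell included G6PD3 (AT1G24280) and G6PD2 (AT5G13110), plastid enzymes that supply reducing power, at 61.9 ± 13.9 CPM in SAB-treated and 194 ± 21.4 CPM in untreated leaves (log2 fold -1.64, SE 0.20, adjusted p = 0.000747), and at 36.2 ± 8.88 CPM in SAB-treated and 98.5 ± 7.55 CPM in untreated leaves (log2 fold -1.43, SE 0.19, adjusted p = 0.00119). NIGT1.1 (AT1G25550), a repressor related to HRS1, had 1.63 ± 1.72 CPM in SAB-treated and 12.8 ± 5.71 CPM in untreated leaves (log2 fold -2.96, SE 0.68, adjusted p = 0.0167). NLP1 (AT2G17150) and NLP6 (AT1G64530), relatives of NLP7, stood at -0.49 (adjusted p = 0.0118) and -0.79 (adjusted p = 0.013), NRG2 (AT3G60320), a nitrate regulator, at -0.48 (adjusted p = 0.023), and RFNR2 (AT1G30510), a root-type ferredoxin reductase, at -0.81 (adjusted p = 0.0391). The 3 that rose were CBL1 (AT4G17615), a calcium sensor that works with CIPK23, at 98.2 ± 40.2 CPM in SAB-treated and 11.1 ± 2.79 CPM in untreated leaves (log2 fold 3.16, SE 0.40, adjusted p = 0.000964), NRT2.7 (AT5G14570), a vacuolar nitrate transporter known from seeds (2.09 (adjusted p = 0.0098)), and NLP5 (AT1G76350), another NLP7 relative (0.81 (adjusted p = 0.00181)).

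In roots of day 18, 0 of 42 of these genes rose and 3 fell in SAB plants, where 0.200% of all identifiers rose and 0.564% fell. NIGT1.3 (AT3G25790), a nitrate-induced repressor, had 8.33 ± 2.18 CPM in SAB-treated and 23.7 ± 1.09 CPM in untreated roots (log2 fold -1.49, SE 0.19, adjusted p = 0.00804). NIGT1.1 had 10.8 ± 1.4 CPM in SAB-treated and 27.5 ± 6.48 CPM in untreated roots (log2 fold -1.34, SE 0.18, adjusted p = 0.0114), so it fell in both tissues. TGA1 (AT5G65210), a nitrate-regulated transcription factor of roots, had 118 ± 6.67 CPM in SAB-treated and 237 ± 7.02 CPM in untreated roots (log2 fold -0.99, SE 0.12, adjusted p = 0.00596). In roots of day 8, 1 of 42 fell, NRT2.6 (AT3G45060), an NRT2 family member, at 2.97 ± 0.664 CPM in SAB-treated and 9.53 ± 2.07 CPM in untreated roots (log2 fold -1.68, SE 0.20, adjusted p = 0.0199), where 0.0685% of all identifiers fell. In leaves of day 8, 0 of 39 passed in edgeR, where 0.390% of all identifiers rose and 0.0339% fell, and 6 had an unadjusted p below 0.05.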

How the data were processed

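Per the labels' protocols, oligo-dT purified RNA was read in pairs of 100 bases. The submitters' processing notes name Trim Galore, Bowtie2 and kallisto, without roles, versions or index. Values deposited by the authors are estimated counts (0.99% of values above 0 are whole), and they were summed per identifier and rounded. Tests used the quasi-likelihood method of edgeR 4.0.16 in R 4.3.3, TMM scaling, the default low-count filter (minimum count 10, total 15) and Benjamini-Hochberg adjustment over all identifiers, called at 0.05. Each tissue's 12 libraries entered 1 fit, and contrasts between tissues used all 24. SE is the absolute log2 fold over the root of F. Alternatives were DESeq2 1.42.0, limma-voom (limma 3.58.1), other scalings and filters, single rows, a replicate block and left-out libraries. The methods were also run on simulated counts with the same spread for all identifiers and no paired libraries, which is simpler than these data. The outcome of that run is not used here.

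Members and lists were chosen with earlier results of these data known. Every member in the table is named. Values per library are given for up to 8 members called in each comparison with SAB or difference of SAB effects (where 0 were called, the 2 with the smallest p), the 6 largest age folds of untreated plants per tissue, and up to 3 highest per tissue. At day 18 same-numbered leaf and root libraries deviated together (correlations 0.386 to 0.478), so the numbers pair them; at day 8 they did not (0.008 to 0.154). The reference gene table at hand matched 0 of the members, so no sequence is shown. A further root marker is not reported here.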

Additional observations from a re-analysis of the deposited data

Results flagged for a closer look

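The effect of SAB differed between the days or between the tissues, by a test of that difference, in 14 cases. Of all identifiers, 2.46% passed for the day difference in leaf, 1.07% for that in root and 1.02% for root minus leaf at day 18. In leaf the day 18 minus day 8 difference of log2 folds was -3.02 for UPM1 (AT5G40850), -3.65 for BT2 (AT3G48360), -3.35 for LBD39 (AT4G37540), -2.38 for NIR1 (AT2G15620) and -1.66 for CLC-A (AT5G40890). It was -1.59 for NIA1 (AT1G77760), -1.47 for NLP7 (AT4G24020), -1.27 for GLT1 (AT5G53460) and -0.79 for ASN2 (AT5G65010). In root the same difference was -3.42 for NRT2.2 (AT1G08100), -1.25 for NRT1.1 (AT1G12110) and 1.7 for BT2. The root minus leaf difference at day 18 was 4.32 for BT2 and 0.92 for CLC-A. Many of these calls were not stable. Across 19 alternative settings the leaf call was lost in 12 for ASN2 and for LBD39, 10 for NIR1 and 9 for NIA1. It was lost in 6 for GLT1, 4 for NLP7, 1 for BT2 and 0 for UPM1 and CLC-A. In root it was lost in 14 for NRT1.1 and in 13 for NRT2.2 and for BT2. For root minus leaf it was lost in 11 for CLC-A and 0 for BT2.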

How the results depend on the processing

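Members called in day 18 leaf numbered 14, and 11 to 17 under every alternative but the fit of only the 6 libraries compared, which gave 7 and lost NRT1.7, NIR1, GLN1-1, GLN1-2 and LBD37 to LBD39. In day 18 root the 7 became 12 with DESeq2, 4 with the most abundant row of each identifier, 0 with only the 6 libraries compared, and 1 to 7 with a replicate left out. DESeq2 gave 1 in day 8 leaf and 3 in day 8 root, where edgeR gave 0. For the day difference in leaf the 9 became 3 to 9 with a replicate left out. In root the 3 became 9 with DESeq2, 6 with library totals only, 1 with limma-voom and 0 to 5 with a replicate left out. For root minus leaf the 2 of day 18 became 1 with limma-voom, 1 with no filter on low identifiers and 1 to 3 with a replicate left out, and the 0 of day 8 became 2 with DESeq2 and 0 to 1 with a replicate left out. Scaling by library totals only reversed GLU2 (AT2G41220) in untreated leaf over root (-0.168 at day 8, -0.226 at day 18) and NLP7 (AT4G24020) in SAB leaf over root of day 8 (-0.46). It moved the median log2 fold of all identifiers by 0.17 in the day 18 leaf comparison. No member called in a SAB comparison reversed. The cause of these changes was not tested. Fits with fewer libraries have fewer degrees of freedom, and the part of that was not tested either. The counts are of members alone, and the shares of all identifiers called under each setting are not given here. From these counts alone, a change in the members cannot be told apart from a change over all identifiers. The low levels of BT2, LBD38 and LBD39 in day 18 leaf limit their precision.

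With the replicate number as a block, the members called were 13 in day 18 leaf, 4 in day 18 root, 5 for the day difference in leaf, 0 for the day difference in root and 4 for root minus leaf at day 18. The shares of all identifiers called with the block are not given here either. Deviations of same-numbered SAB and untreated libraries had correlations of -0.07 to 0.205, and those of the 2 days -0.16 to 0.04. The highest were in day 18 root, with 0.197 and 0.205 for replicates 1 and 3, beside -0.003 for replicate 2. A pairing by number is thus not shown for these comparisons, and whether the day 18 roots are partly paired was not tested.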
